A study of Homo sapiens with 4 samples.

Results

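The matrix metalloproteinase (MMP) cluster of chromosome 11 was examined for binding of the leucine zipper transcription factor CEBPB in NCM460, an established human colon epithelial cell line. The part of the genome described is the hg19 window from 102.350 to 102.870 Mb of chromosome 11, a stretch of 520 kb inside band 11q22.2, and its members are the sites whose position falls inside it. It carries 9 genes, which are, from low to high position, MMP7, MMP20, MMP27, MMP8, MMP10, MMP1, MMP3, MMP12 and MMP13. The series held 2 CEBPB ChIP samples (replicates 1 and 2) and 2 input samples, all from NCM460 cells in standard culture with no treatment named, and the design text gives the replicates as independent experiments. Peaks had been called per ChIP sample over input, and the inputs were used here only through the background the peak caller reports. All results come from a single cell line. The window held 26 of 80530 summits in replicate 1, 35 of 104307 summits in replicate 2, and 10 of the 25602 reproducible regions. Reproducible regions are the distinct intervals on chromosomes 1 to 22 and X in the authors' deposited irreproducible discovery rate (IDR) table. The IDR is a score of how stable the rank of a peak is between replicates, and all regions have a global IDR of at most 0.05. Where an interval had several entries, the entry of highest mean fold over the replicates was used.

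MMPs are zinc-dependent proteases, mostly secreted as inactive precursors, that cut collagens, other matrix proteins, cytokines and growth factors. MMP1, MMP8 and MMP13 are collagenases, MMP3 and MMP10 are stromelysins, MMP7 is the matrilysin of glandular epithelium, MMP12 is the macrophage elastase and MMP20 is the enamel protease. All genes of the cluster are read toward lower positions, and several are known targets of AP-1 factors and of inflammatory signals. CEBPB takes part in acute phase, cytokine and differentiation responses, binds DNA as a dimer, and can pair with other leucine zipper factors. Binding was measured here, and no expression values of these genes were analysed.

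Among the genes of the cluster, only the MMP1 and MMP13 starts had an hg19 position in the sources used, at 102.669 and 102.826 Mb, each given to 1 kb. Sites are therefore placed by their distance from these starts, and no site is assigned to the other genes. Promoter sequence was at hand in RefSeq for 5 of the 9 genes (MMP7, MMP20, MMP27, MMP8 and MMP10), in the build GRCh38.p14, whose positions cannot be set against the hg19 positions of the peaks. To show what these promoters hold of the C/EBP and AP-1 consensus letters, the 250 bases before each start were searched on both strands for TTGCNNAA (C/EBP) and TGATGCAA (a C/EBP and ATF composite) and for TGANTCA (AP-1), which reads the same on both strands. The bases from -120 to -51 are shown for the 4 genes with a match, counted back from -1 just before the start, with the matched bases in capitals.
MMP8, GRCh38.p14 chr11:102725005-102725074, minus strand: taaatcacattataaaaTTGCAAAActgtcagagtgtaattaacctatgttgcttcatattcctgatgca
MMP7, GRCh38.p14 chr11:102530798-102530867, minus strand: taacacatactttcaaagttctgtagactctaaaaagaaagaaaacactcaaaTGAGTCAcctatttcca
MMP10, GRCh38.p14 chr11:102780679-102780748, minus strand: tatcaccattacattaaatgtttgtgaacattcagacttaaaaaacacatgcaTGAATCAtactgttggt
MMP20, GRCh38.p14 chr11:102625383-102625452, minus strand: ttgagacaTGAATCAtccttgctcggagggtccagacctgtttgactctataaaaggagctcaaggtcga

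The C/EBP letters matched once, in MMP8, from -103 to -96 on the strand shown. Of all 35116 promoters in the table, 9.05% held this motif in the same 250 bases. The composite TGATGCAA had no match in the 5 promoters and was present in 0.772% of all promoters. The AP-1 letters matched in 3 of the 5 promoters and in 6.57% of all promoters. In MMP7 and MMP10 they lay at the same distance from the start, -67 to -61, and in MMP20 at -112 to -106. MMP27 matched none of these 3 motifs. A match describes letters in a window and is no binding site by itself.

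Across the window, CEBPB peaks formed 35 separate sites when overlapping peaks of the replicates were merged. Both replicates marked 21 of them, replicate 1 alone marked 3 and replicate 2 alone marked 11. The 10 reproducible regions are a subset of the 21, and the other 11 shared sites were not in the IDR table. Of the 24 peaks of replicate 1 in the window, 21 (87.5%, 95% exact binomial interval 67.6 to 97.3%) shared at least 1 bp with a peak of replicate 2, where the share over all replicate 1 peaks was 82.0%. Of the 32 peaks of replicate 2, 21 (65.6%, interval 46.8 to 81.4%) did so with replicate 1, where the share over all its peaks was 62.8%. Peaks in the IDR table made up 41.7% of the window's peaks in replicate 1 and 31.2% in replicate 2, and the background shares were 34.0% and 26.2%. Sharing in the window was therefore near the background of the series in each replicate. Replicate 2 had 1.35 times as many summits in the window as replicate 1, close to the 1.3 times of all chromosomes.

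**Figure D1:**
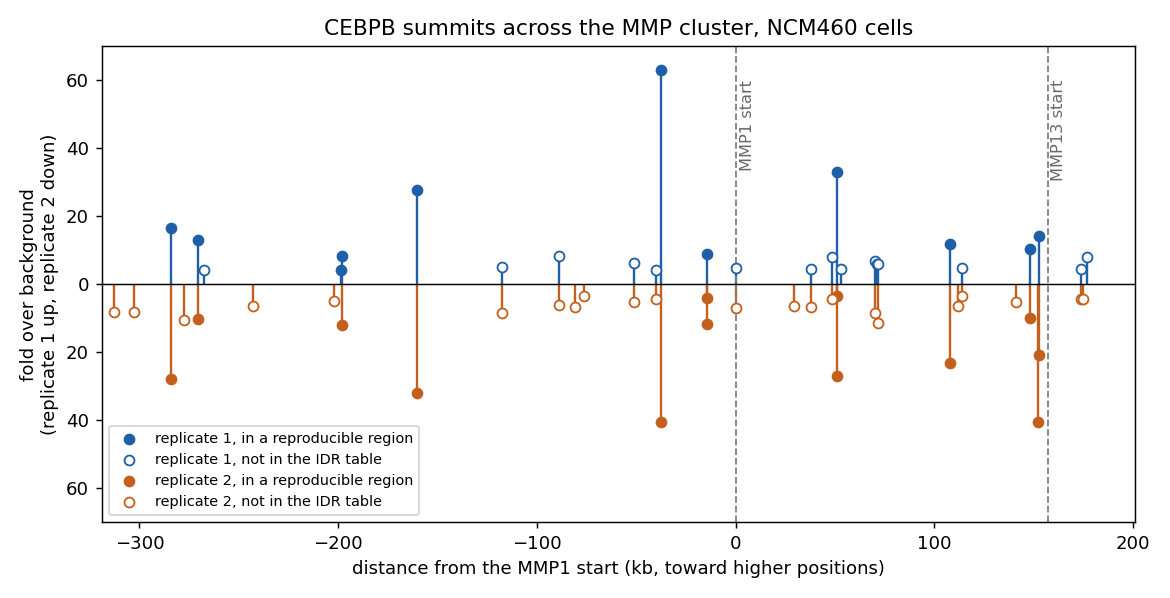
Fold over background (vertical axis, replicate 1 upward and replicate 2 downward) of every CEBPB summit in the window, by its distance from the MMP1 start in kb. Filled points lie in the 10 reproducible regions, open points do not, and dashed lines mark the MMP1 and MMP13 starts; the tallest summit stands 37.7 kb below the MMP1 start, at 62.8 in replicate 1 and 40.6 in replicate 2.

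The strongest region of the cluster lay at chr11:102631047-102631675, 37.7 kb below the MMP1 start. Its fold over background, as the authors' peak caller gave it, was 62.8 in replicate 1 and 40.6 in replicate 2 (mean 51.7 ± 15.7, SD, n = 2). Behind these folds stood 160 and 202 fragments, that is, extended reads at the summit recovered from the deposited fold and p-value, over input backgrounds of 1.38 and 3.00 expected fragments on the scaled pileup of the peak caller. The summits of the replicates were 5 bp apart. By mean fold the region ranked 113 among 25602 regions and 5 among the 1275 regions of chromosome 11. Its percentile among all regions was 99.6 by mean fold, 97.7 by −log10 p and 94.8 by fragments. By the fold of replicate 1 alone it was 99.7, and by that of replicate 2 alone 97.0. It held more fragments than each of the other 9 regions in both replicates.

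A pair of regions followed at nearly equal mean fold. The region at chr11:102508470-102508805, 160.4 kb below the MMP1 start, had folds of 27.8 and 32.0 (mean 29.9 ± 2.97, SD, n = 2), with 61 and 93 fragments, and its summits were 2 bp apart. Its backgrounds of 1.07 and 1.36 were at or near the lowest value the peak caller assigns, which is 1.00 in replicate 1 and 1.36 in replicate 2. The next reproducible region toward MMP1 was 122.2 kb away, the widest gap in the window, although sites outside the IDR table lay within it. Toward lower positions the next reproducible region was 37.5 kb away, where the median gap was 40.2 kb. The other of the pair, at chr11:102719930-102720520, lay above the MMP1 start by 51.3 kb, in the stretch toward MMP13 where the gene order places MMP3 and MMP12, and had folds of 32.8 and 26.9 (mean 29.8 ± 4.16, SD, n = 2). These means differed by less than the SD of either region.

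Closest to the MMP13 start was the region at chr11:102820985-102821864, whose summits lay 4.5 kb below it, on the side toward which the gene is read. With 880 bp it was the widest of the 10, and its folds of 14.1 and 40.5 (mean 27.3 ± 18.7, SD, n = 2) were the farthest apart. Fragments differed less, at 90 and 137, while the input background was 5.00 in replicate 1 and 1.73 in replicate 2. The IDR entry used for this region pairs summits that lie 116 bp apart, and 0.441% of all regions had a distance over 100 bp. Replicate 2 has another summit in the same peak, 150 bp from the first and 34 bp from that of replicate 1, with a fold of 20.8, 129 fragments and a background of 4.0. Between these nearer summits the fold gap was 14.1 to 20.8. A weaker region, at chr11:102817089-102817507, stood 3.5 kb from this region, with folds of 10.4 and 9.86 (mean 10.1 ± 0.359, SD, n = 2) and 25 and 38 fragments. These were the only reproducible regions of the window within 10 kb of each other, whereas 35.9% of all regions had such a neighbour.

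Toward MMP7, at the low end of the cluster, the region at chr11:102384626-102384965 had folds of 16.4 and 27.8 (mean 22.1 ± 8.03, SD, n = 2) and 52 and 93 fragments. Its neighbour at chr11:102398238-102398756 had 13.1 and 10.2 (mean 11.6 ± 2.05, SD, n = 2) and 39 and 37 fragments. Replicate 2 was higher in the first of these regions and replicate 1 was higher in fold in the second. At chr11:102470410-102470931 the folds were 8.16 and 12.0, with 36 and 42 fragments, and replicate 1 had a weaker summit 296 bp away in the same peak.

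The remaining regions lay on either side of MMP1. The region at chr11:102654236-102654827, the nearest reproducible region to the MMP1 start at 14.4 kb below it, had folds of 8.98 and 11.8 (mean 10.4 ± 1.97, SD, n = 2) and 28 and 41 fragments. The region at chr11:102776605-102776920, 107.8 kb above the MMP1 start, had folds of 11.7 and 23.2 (mean 17.4 ± 8.13, SD, n = 2) but similar fragments, 62 and 68. Its background was 4.0 in replicate 1 and 1.39 in replicate 2. The background is part of the fold by its definition. In 8 of the 10 regions the higher fold was in the replicate of the lower background. In the region 160.4 kb below the MMP1 start the higher background went with the higher fold. It was 1.36 in replicate 2, the lowest value assigned there, against 1.07 in replicate 1. The higher background also went with the higher fold in the region 51.3 kb above the MMP1 start (2.00 in replicate 1 against 1.36). What sets the background at these summits was not tested.

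At the start of MMP1, the interstitial collagenase, both replicates had a weak peak. The summit of replicate 1 was at 102669057 (peak chr11:102668982-102669139, fold 4.79, 12 fragments over a background of 1.53) and that of replicate 2 at 102669020 (peak chr11:102668919-102669124, fold 7.0, 28 fragments over 2.34). The summits were 37 bp apart and fall on the start within the 1 kb to which its position is known. Their −log10 q-values were 4.73 and 12.3, well past a q of 0.05, the largest in each list, yet the pair was not in the IDR table. The fold of replicate 1 was below the median of all its summits, 6.99, and that of replicate 2 was slightly above its median, 6.53. Above the MMP13 start, where 44 kb of the window remain, there was no reproducible region and 1 site shared by both lists, 16.9 kb away, with folds of 4.32 and 4.45.

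By stretches of the window, the 319 kb below the MMP1 start, which the order of the genes fills with MMP7, MMP20, MMP27, MMP8, MMP10 and MMP1, held 6 reproducible regions (18.8 per Mb, 95% exact Poisson interval 6.9 to 40.9). The 157 kb from the MMP1 to the MMP13 start held 4 (25.5 per Mb, interval 6.94 to 65.2). These intervals overlap widely. The first stretch had 18 sites of either list, of which 10 were shared, and the second had 14, of which 10 were shared, counting the site at the MMP1 start with the second.

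**Figure D2:**
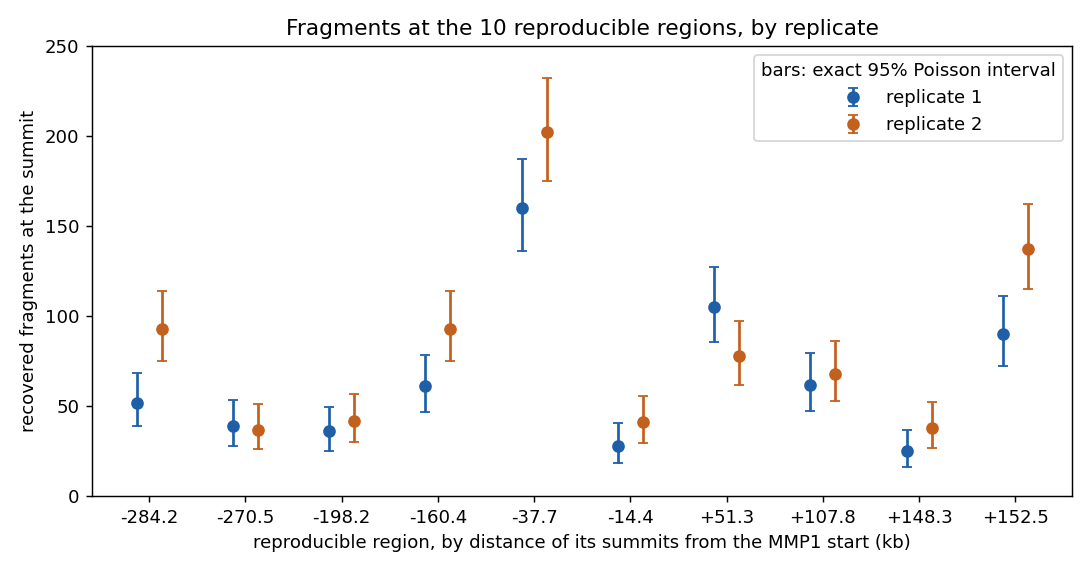
Recovered fragments at the summit (vertical axis) of the 10 reproducible regions in replicates 1 and 2, ordered by distance from the MMP1 start in kb, with exact 95% Poisson intervals. The region at -37.7 kb is the highest in both replicates, and the region at +51.3 kb has 105 fragments in replicate 1 and 78 in replicate 2.

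To ask whether the libraries differed at these regions by more than counting noise, the fragments of each region were compared with a two-sided exact binomial test against the median share of regions of like height, with p-values adjusted over all 25602 regions by the Benjamini-Hochberg method. Before adjustment, 16.5% of all regions had p under 0.05 in this binomial test, where counting noise alone would give a share of about 0.05. In the window 2 of the 10 regions did. Of all regions, 2.96% passed an adjusted p of 0.05, 1.71% toward replicate 1 and 1.25% toward replicate 2, and of the 10 regions 1 did. It was the region 51.3 kb above the MMP1 start, with 105 fragments in replicate 1 and 78 in replicate 2, a ratio of 0.743 where 1.28 was the median at that height (exact binomial test, adjusted p = 0.022). Replicate 2 had more fragments in 8 of the 10 regions. The median ratio of replicate 2 to replicate 1 was 1.36 in the 10 regions, near the 1.29 of all regions. The region at the low end of the cluster had a ratio of 1.79 where 1.31 was the median (exact binomial test, adjusted p = 0.38). The test covers counting error only and compares the libraries, not conditions. Across the 10 regions the replicates had a Spearman rho of 0.745 for fold and 0.79 for fragments, as a description over sites that share their libraries; over all regions the values were 0.607 and 0.891.

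In strength the 10 regions spread over nearly the whole range of CEBPB regions. Their mean folds ran from 10.1 to 51.7, a span of 5.12 times, with a median of 19.8, beside 15.8 over all regions. By percentile of mean fold they ran from 9.47 to 99.6 with a median of 66.0, and 6 of the 10 lay above the median of all regions. That position depends on the replicate: by the fold of replicate 1 alone the median percentile was 41.4, and by that of replicate 2 alone 80.2. In fragments the medians were 56.5 and 73.0 in replicates 1 and 2, beside 58.0 and 76.0 over all regions. The median width of the 10 regions was 520 bp, beside 421 bp over all regions, and single widths ran from 316 to 880 bp.

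**Figure D3:**
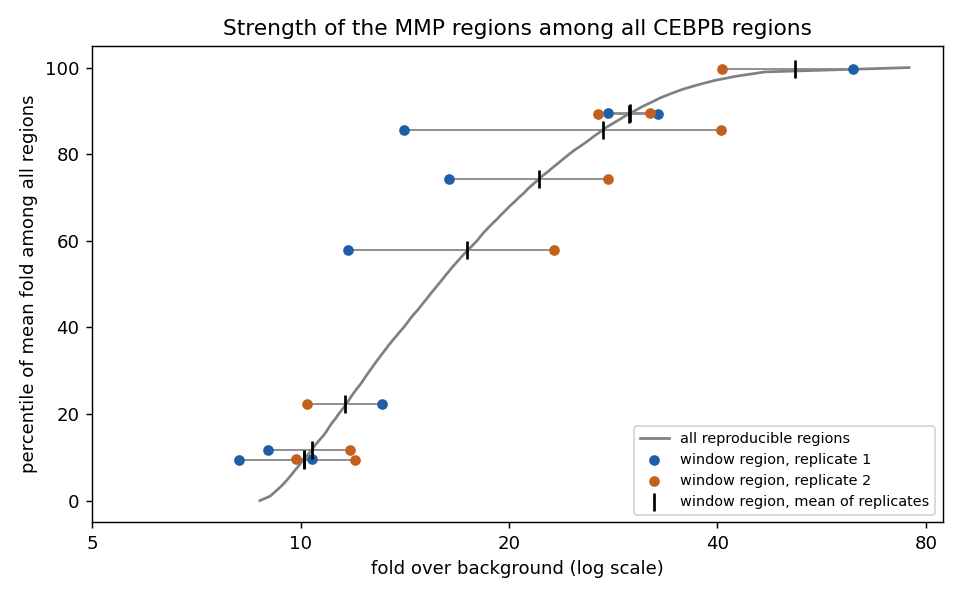
Percentile of mean fold among all 25602 reproducible regions (vertical axis) against fold over background on a log scale. The grey curve is all regions, points are the 10 regions of the MMP window in replicates 1 and 2 joined by a line, and ticks are their means, from 10.1 to 51.7.

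Sites outside the IDR table had lower median folds than the reproducible regions, although in each replicate the tallest of them exceeded the weakest of these. The 11 shared sites had folds of 4.19 to 8.37 in replicate 1 (median 4.88, 10 to 28 fragments) and 3.56 to 11.4 in replicate 2 (median 6.07, 16 to 70 fragments). The tallest of them in replicate 2 was at chr11:102740149-102740726, 71.6 kb above the MMP1 start by that summit, with a fold of 11.4 and 70 fragments. In replicate 1 it had 25 fragments, and 4 of the shared sites had a higher fold there, up to 8.37. Replicate 1 split it into a pair of summits of equal fold, 6.04, at a distance of 295 bp. Of the peaks that both replicates shared over the series, 41.5% of replicate 1 peaks were in the IDR table, and in the window it was 10 of 21. The 11 sites of replicate 2 alone had a median fold of 6.46, close to the 6.53 of all its summits, and the 3 of replicate 1 alone had a median of 4.52, where 6.99 was that of all its summits. The strongest site of replicate 2 alone, at chr11:102391319-102391539, had a fold of 10.6 and 30 fragments. This and the fold of 11.4 above were higher than the replicate 2 folds of 2 reproducible regions, 10.2 and 9.86. In replicate 1 the shared site with a fold of 8.37 was higher than the weakest reproducible region, at 8.16. The strongest of replicate 1 alone, at chr11:102845618-102846009, had 7.95 and 18.

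The window held 19.2 reproducible regions per Mb (95% exact Poisson interval 9.22 to 35.4). Chromosome 11 had 9.44 per Mb, the long arm without centromeric bands 10.3, the rest of band 11q22.2 14.3 (interval 3.89 to 36.6), and all chromosomes 8.43. Counted as summits, the window was equal to the rest of the band per Mb in replicate 1 and lower in replicate 2 (67.3 against 78.6 per Mb). Chromosome 11 had 37.8 summits per Mb in replicate 2 and fewer in replicate 1, 29.6, below the window in each. The adjacent stretch of the same length toward lower positions held more than the window, with 12 regions against 10, and with 39 and 54 summits against 26 and 35. The adjacent stretch toward higher positions held fewer, with 3 regions and with 12 and 13 summits. Among 249 consecutive windows of the same length on chromosome 11, 26 held more regions and 9 in all, this window included, held 10, with a median of 4.0 and a highest count of 18. Over all chromosomes 563 of 5374 windows held more. The window was thus in the upper part of the distribution and not at its end, and no test was made, since binding sites cluster. Input background at the window's summits had medians of 2.00 (replicate 1) and 1.87 (replicate 2) expected fragments, where chromosome 11 had 2.45 and 2.57. In replicate 2, 10 of 35 summits (28.6%) were at the lowest value the peak caller assigns, beside 13.9% on chromosome 11, and in replicate 1 it was 1 of 26 (3.85%), beside 8.28%. The part of the background in the counts of sites was not tested.

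**Figure D4:**
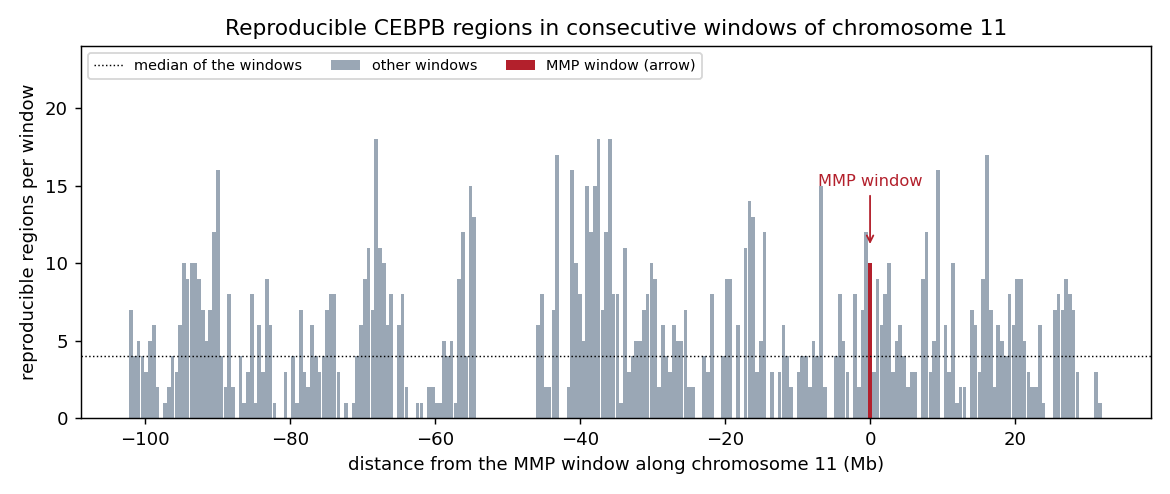
Number of reproducible CEBPB regions (vertical axis) in consecutive windows of 520 kb along chromosome 11, by distance from the MMP window in Mb, without windows that touch centromeric bands. The arrow marks the MMP window with 10 regions, and the dotted line is the median of 4.0.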

How the data were processed

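ChIP DNA and input DNA of NCM460 cells were sequenced as paired reads, per the labels' protocols. The submitters' processing notes name the build hg19, the aligner Bowtie2 2.3.4 and the peak caller MACS2 2.1.2, without settings. The lists deposited by the authors give each summit a score, a fold over background (a ratio), and −log10 p- and q-values. The authors' IDR table gives −log10 IDR values and has no stated version. All of its 27544 entries matched summits of both lists. Its distinct intervals on chromosomes 1 to 22 and X are the 25602 regions. Read totals are not in these files.

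Fragments and background were solved from the deposited fold and −log10 p. The fold has a pseudocount of 1 on the scaled pileup and on the background, and p is the Poisson tail. The scales, 0.927 and 0.8 per read, were chosen for the best fit to a sample of the summits. With them, whole fragments fitted 100.0% of summits within 0.005 on −log10 p. Of 4000 summits per replicate simulated with the same formulas and scales, 100.0% were recovered. That simulation checks the solving step and cannot check the formulas. Background is on the scaled pileup. The binomial step, tested on simulated data for the comparison of replicates over 25602 regions with counting noise only, recovered 92.0% of 200 regions changed 3-fold, with 10 calls among the others. If reads were kept once per position and strand, a summit could hold no more than 306 and 312 fragments; compression of tall sites was not tested.

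Chromosomes 1 to 22 and X were used. Positions are hg19, counted from 1. Window, members, lists and tests were chosen with earlier results of these data known. All member genes and, being 10, all reproducible regions are named, with the summits nearest to the known starts and the strongest unshared ones. Intervals are at the 95% level and cover counting error only. Alternatives covered thresholds, overlap rules, comparison areas, measures of strength and motif letters. Tests ran in SciPy 1.17.1 under Python 3.11.15 and figures in matplotlib 3.10.9, with bands of hg19 from the R package circlize.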

Additional observations from a re-analysis of the deposited data

How the results depend on the processing

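The 10 reproducible regions became 6 at a global IDR of at most 0.01 and 21 as pairs of summits within 100 bp at a q of at most 0.01 in both lists. Peaks of a single list that reach the median fold of its reproducible regions numbered 4 to 6 when a replicate was left out. A summit distance of at most 100 bp, chosen after seeing the data, left 9. The background ratio to chromosome 11, 0.816 in replicate 1 and 0.728 in replicate 2, was 0.935 and 0.85 against all chromosomes, and in replicate 2 it was 0.799 against the long arm. The nearest summits lay 0.05 kb from the given MMP1 start at the mean, which is below the 1 kb to which that start is known. The nearest reproducible region lay at -14.4 kb. The looser letters TTNCNNAA matched in 3 of the 5 promoters, where TTGCNNAA matched in 1. In the other 32 of 41 alternatives, values stayed within 1.5 times for counts or within their interval or spread. That spread is wide for strength: the median percentile of 66.0 became 41.4 without replicate 2 and 80.2 without replicate 1, and 51.5 by fragments. The replicate difference 51.3 kb above the MMP1 start kept its call (exact binomial tests). Its adjusted p was 0.017 against the median share of all regions and 0.02 among regions at a global IDR of at most 0.01. Pairing by the nearest summit used the same summits at this region, so its 0.022 repeats the main test. No paired analysis was possible because no list of the input samples was used and no groups were compared.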

Other observations

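Just outside the window, the nearest summits below it were 5.6 kb from its edge in both replicates, at chr11:102344289-102344534 in replicate 1 (fold 8.36, 26 fragments) and chr11:102344282-102344570 in replicate 2 (fold 8.06, 29 fragments). Above it, the nearest summit was 3.2 kb away in replicate 2 (fold 6.53), and in replicate 1 it was farther away (fold 3.74). None of these was in the IDR table. Just inside, the lowest summit was at 102356260 in replicate 2 alone (fold 8.29, 24 fragments) and the highest at 102845777 in replicate 1 alone (fold 7.95, 18 fragments). Within 100 kb of the window there were 3 more reproducible regions. The strongest, on the MMP13 side at chr11:102962780-102963193, had folds of 27.4 and 26.0 and 117 and 129 fragments, more than any region of the window except the one 37.7 kb below the MMP1 start in replicate 1, and fewer in replicate 2 than the regions at -37.7 and +152.5 kb from the MMP1 start.

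Further letters were searched in the 5 promoters. The ETS core AGGAAG, searched on both strands, matched in MMP7, at -169 to -164 and at -145 to -140, and in none of the other 4, where 28.7% of all promoters held it. The looser TTNCNNAA matched in MMP27, MMP8 and MMP10, and in 33.2% of all promoters.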
